A study of Rattus norvegicus with 50 samples.

Results

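The ABC (ATP-binding cassette) transporters of rat liver were followed across 10 groups of 5 male Sprague Dawley rats, about 3 months old, in a study of brain injury, erythropoietin and anakinra. Members were all genes whose symbol starts with Abc, a subfamily letter from a to g and a digit, taken from array probes annotated with a single gene, which gave 43 members among the 14506 genes measured. They comprised 10 genes of subfamily A, 8 of B, 10 of C, 3 of D, 1 of E, 3 of F and 8 of G. The intact sham group was not injured, received no treatment named in the labels and has no time point. In the other 9 groups the cortex was injured by controlled cortical impact (CCI), and the rats received saline vehicle, erythropoietin (EPO, the hormone of red cell production) at 2500 IU/kg or anakinra (a blocker of the interleukin-1 receptor) at 100 mg/kg. Livers of each of these treatments were collected 24 h, 72 h and 7 days after injury. RNA came from punches of the median lobe, and each animal had an array of its own (Affymetrix Rat Gene 1.0 ST). A difference between vehicle and sham therefore combines injury, saline, handling and time of collection, which cannot be told apart here.

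ABC transporters use ATP, bound at a conserved pair of cassettes, to move substrates across a membrane, and in most of subfamilies A, B, C, D and G they act as exporters. In hepatocytes those of the canalicular membrane drive bile formation by exporting bile salts, phospholipid, sterols and conjugated drugs, while those of the sinusoidal membrane return conjugates to blood or load cholesterol onto lipoproteins. Other members sit in mitochondria, peroxisomes or lysosomes, and the E and F proteins do not span a membrane and work in translation.

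Values are deposited RMA values on the log2 scale, so that 1 unit is a 2-fold difference within 1 probe. Levels are not compared between genes, because probes differ in their response. The array medians lay between 6.66 and 6.89. The spread of all probes was narrower by more than 0.05 than the median array (SD at most 2.06, against a median of 2.11) on 7 arrays, of which 5 were vehicle arrays. Because these 7 arrays were unevenly placed, the group tests were also computed without them. For the labelled tissue, the mean of 10 hepatocyte genes lay between 12.83 and 12.90 in sham arrays, above the array medians. No hepatocyte gene passed the test in any of the 9 main comparisons. Differences were tested with limma over all 14506 genes, with Benjamini-Hochberg adjustment and an adjusted p under 0.05 as threshold.

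Across the superfamily, mRNA differences were small in the 9 main comparisons, vehicle against sham and each drug against vehicle. Of 387 differences, 43 genes in 9 comparisons, 3 passed the test and none reached 1.5-fold. The mean signal of 26 of the 43 members lay above that of the median gene, and RMA compresses differences of dim probes. The cholesterol exporter Abca1 rose in vehicle livers at 24 h over sham, the sterol exporter Abcg1 rose with EPO over vehicle at 72 h, and the lysosomal cobalamin transporter Abcd4 fell in the latter comparison. These 3 genes encode proteins of the plasma membrane, of intracellular vesicles and of lysosomes, and none belongs to the canalicular drug and bile salt exporters. The largest of the 387 differences was in Abcg2 with EPO over vehicle at 72 h, 0.49 or 1.40-fold, and it did not pass (adjusted p = 0.21). The 95% interval of a difference reached 0.216 to either side at the median member, from 0.121 for Abcd4 to 0.642 for Abcg5. The threshold on adjusted p is stricter than these intervals, so differences larger than these could also remain uncalled.

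Read by comparison, 1 member passed in vehicle at 24 h against sham, where 0.827% of all genes did, and 2 members had an unadjusted p under 0.05, against 15.9% of genes. No member passed in vehicle at 72 h or at 7 days against sham, where 0% of genes passed, and 4 and 3 members had an unadjusted p under 0.05 in limma, against 12.1% and 6.52% of genes. With EPO against vehicle, 0 members passed at 24 h (0.0276% of genes), 2 at 72 h (2.72%) and 0 at 7 days (0.365%). In limma 3, 9 and 2 members had an unadjusted p under 0.05 at these times, against 10.8%, 20% and 4.97% of genes. With anakinra against vehicle, 0 members passed at 24 h (0% of genes), at 72 h (0%) or at 7 days (0.0138%). The unadjusted counts for anakinra in limma were 1, 4 and 4 members, against 4.25%, 10.7% and 7.62% of genes. Set against sham, EPO livers had 1 passing member at 24 h (0.434% of genes), 5 at 72 h (3.46%) and 3 at 7 days (2.86%). Anakinra livers had 1 at 24 h (0.193%), 1 at 72 h (0.11%) and 0 at 7 days (1.83%) against sham. The same sham arrays serve all comparisons with sham, and each vehicle group serves both drugs, so these counts are not independent of each other.

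Over the 43 members, the median difference of vehicle from sham was 0.09 at 24 h, 0.09 at 72 h and 0.06 at 7 days, beside 0.04, 0.04 and 0.02 over all genes. Positive differences numbered 29, 33 and 34 of the 43 members at the 3 times, beside 8418, 8625 and 8045 of the 14506 genes. These counts share the sham arrays and include the narrow vehicle arrays. Neither the counts nor the medians were computed without the narrow arrays. Under EPO the medians against vehicle were 0.0031, -0.0078 and 0.0275 at 24 h, 72 h and 7 days, and under anakinra -0.0164, -0.0313 and -0.0264. The medians of all genes lay between -0.0289 and -0.0032 in these 6 comparisons.

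**Figure D1:**
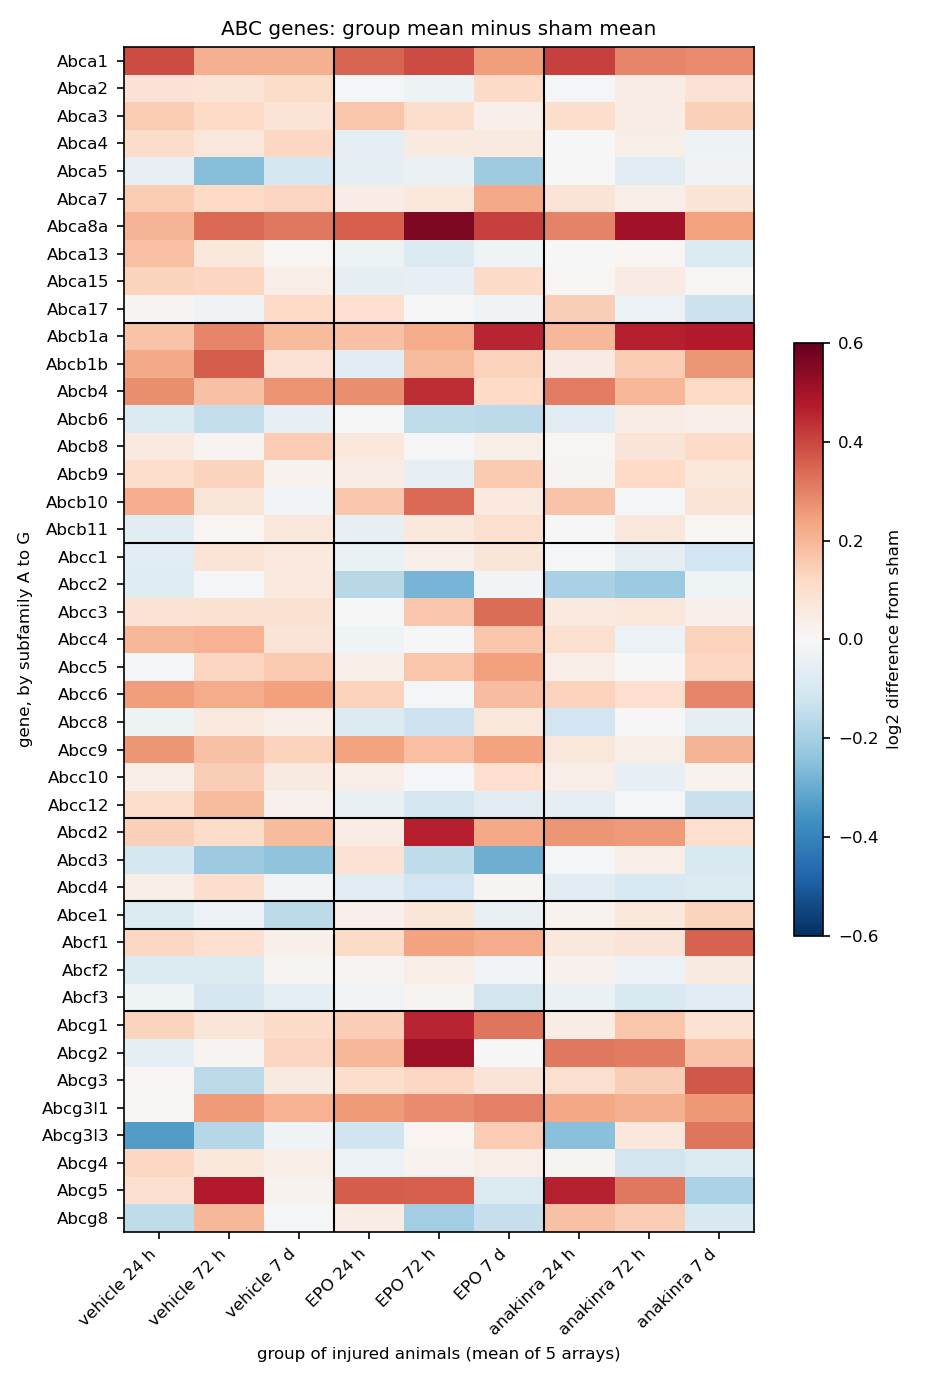
Mean of each injured group minus the sham mean, in log2 units, for the 43 ABC genes (rows, by subfamily A to G) in 9 groups (columns), with colour for size and sign. Most cells are pale, and the darkest cell is Abca8a with EPO at 72 h (0.56).

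An F test over the 10 groups asked whether any group differed. It passed for 3 members where 5.67% of all genes passed, namely Abcg1 (adjusted p = 0.00557), the lipid transporter Abca8a (0.00898) and Abca1 (0.00961). No member passed an F test for a change over time in vehicle livers (0.0689% of genes). None passed an F test for a change over time in the difference from vehicle, under EPO (0.214%) or anakinra (0%). In limma 2, 3 and 2 members had an unadjusted p under 0.05 in these time tests, against 5.35%, 8.47% and 2.77% of genes. Abcg1, Abcd4 and Abcc3 were those under EPO, with adjusted p of 0.472, 0.481 and 0.559.

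Among the canalicular exporters, 8 of 8 listed genes were measured and none passed in any of the 9 main comparisons. Abcb11, the bile salt export pump, was the steadiest of them. Its group means lay between 12.139 in vehicle at 24 h and 12.306 with EPO at 7 days, with 12.209 ± 0.098 (SD, n = 5) in sham. All 9 differences of Abcb11 lay between -0.07 and 0.07, and their 95% intervals reached no further than 0.24 in either direction, so a change of 1.5-fold in the mean lay outside them. Its spread between animals of a group was 0.128, a spread smaller than that of most genes, since 14.8% of genes had a smaller one.

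Abcc2 (Mrp2), the canalicular exporter of bilirubin glucuronide and other conjugates, had its lowest mean with EPO at 72 h. Those 5 livers read 11.93, 11.72, 12.01, 11.60 and 12.15, and the 5 vehicle livers at 72 h read 12.14, 12.004, 12.18, 12.11 and 12.33. The groups overlapped, and the difference of -0.27 (SE 0.108) did not pass (adjusted p = 0.153). With anakinra at 72 h Abcc2 read 11.84 to 12.01, a difference of -0.22 from vehicle (adjusted p = 0.465). In vehicle livers Abcc2 differed from sham by -0.07, -0.01 and 0.06 at the 3 times.

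Abcb4 (Mdr2), which flips phosphatidylcholine into bile, had positive differences from sham in vehicle livers at all times, 0.28, 0.18 and 0.27, none past the test (adjusted p from 0.381 to 0.772). Its sham values ran from 9.94 to 10.68, so every vehicle group overlapped sham. Abcb1a and Abcb1b are the rodent pair of P-glycoproteins, efflux pumps for many drugs. Abcb1b read 6.55, 6.76, 6.76, 6.91 and 6.72 in sham and 7.02, 6.91, 6.91, 7.07 and 7.61 in vehicle at 72 h. That difference of 0.36 (SE 0.142, adjusted p = 0.396) did not pass, and 1 vehicle animal, at 7.61, lay well above the other 4. Abcb1a differed from sham by 0.29 in the same vehicle livers (adjusted p = 0.451) and by 0.47 with anakinra at 72 h (adjusted p = 0.523).

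Abcg2 (Bcrp), an exporter of urate, porphyrins and sulphated drugs, read 7.06, 7.14, 7.69, 7.77 and 7.14 in vehicle at 72 h. With EPO it read 7.39, 8.09, 7.80, 7.44 and 8.53. In the EPO group 3 animals exceeded all vehicle animals and the other 2 lay within their range. The difference of 0.49 had an SE of 0.221, and 97.7% of genes were less variable between animals of a group than Abcg2, whose SD was 0.371.

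**Figure D2:**
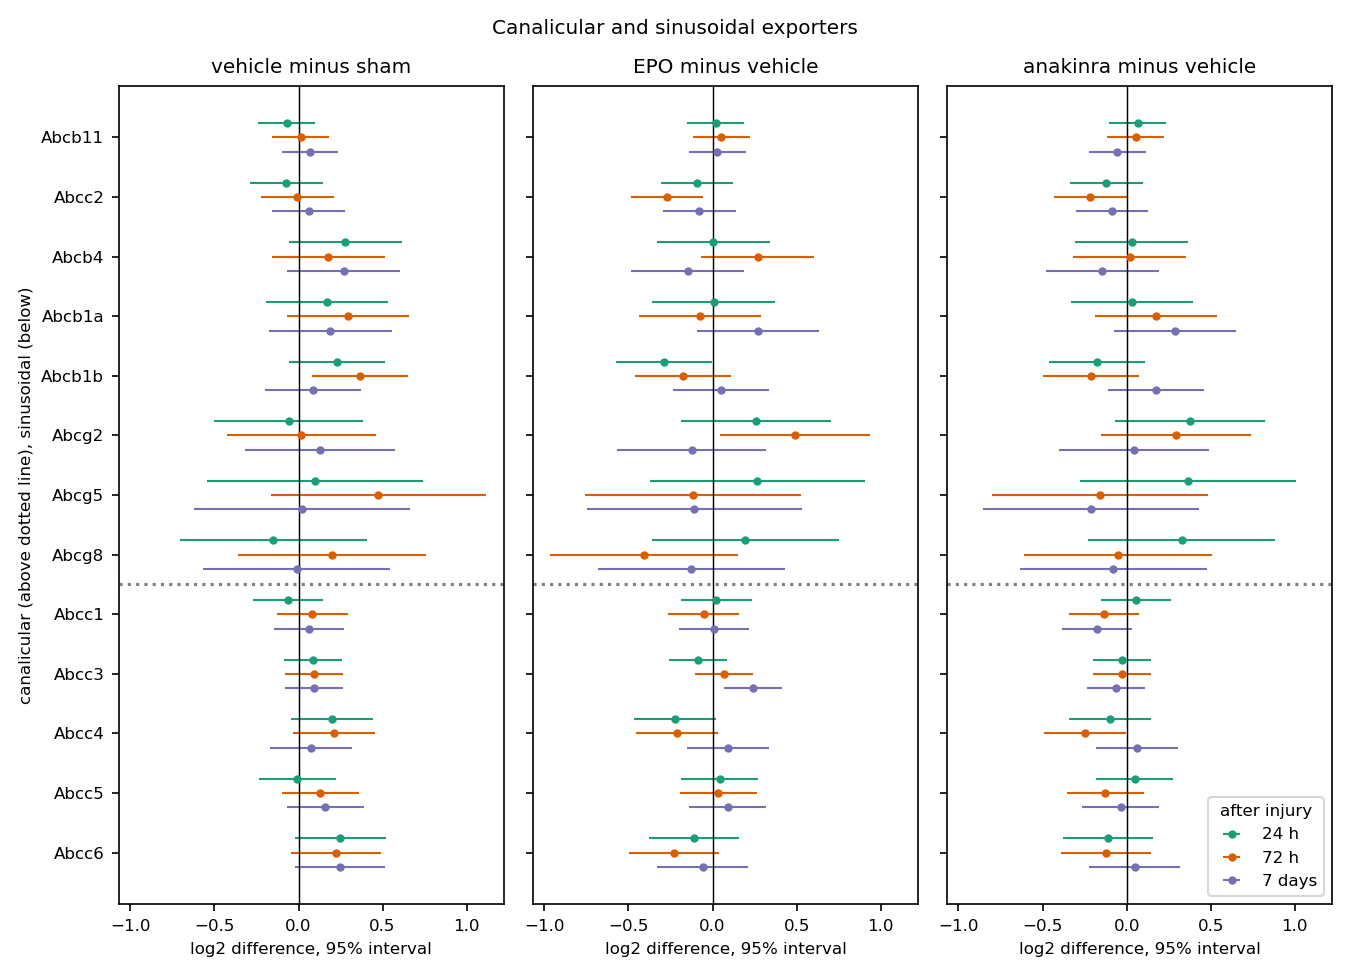
Log2 differences (points) with 95% intervals (lines) of 8 canalicular and 5 sinusoidal exporters, for vehicle minus sham and for each drug minus vehicle, with colour for the time after injury. Abcb11 has points near 0 and short intervals throughout, and Abcg5 and Abcg8 have the widest intervals.

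Abcg5 and Abcg8, which join into 1 pump that exports cholesterol and plant sterols into bile, varied widely between animals of a group. None of their differences passed. Those with the lowest p were 0.48 for Abcg5 in vehicle at 72 h against sham (SE 0.319, adjusted p = 0.475) and -0.41 for Abcg8 with EPO at 72 h (adjusted p = 0.397). Over the 50 livers Abcg5 ran from 6.60 to 9.18 and Abcg8 from 6.04 to 8.02. The SD within groups was 0.538 for Abcg5 and 0.466 for Abcg8, against medians of 0.171 over the members and 0.169 over all genes. Of all genes, 99.5% and 99.1% had a smaller SD. Sham livers were the most uniform for Abcg5, at 7.78 to 8.07.

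The animals high in the one gene were high in the other. With anakinra at 7 days Abcg5 read 7.15, 6.60, 8.76, 8.42 and 8.01, and Abcg8 in the same animals read 6.48, 6.04, 7.77, 7.60 and 7.24. The 5 animals thus took the same order for both genes. Over 50 livers, after each group's mean was subtracted, Pearson's r was 0.872 and Spearman's rho 0.847, each with p = 1e-05 in a permutation test with 100000 resamples, the smallest it can give. Without the 2 livers farthest from the median of Abcg5, r was 0.842, and without the 7 narrow arrays it was 0.889. Both genes were read on the same arrays, so any error of an array is shared.

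The genes are head to head neighbours. Their promoter windows, 250 bases before to 50 after each start in RefSeq (GRCr8), share 295 of 300 bases on opposite strands, so the window of Abcg5 shows both. It is printed because this pair varied together. Capitals mark, on either strand, the binding motif of GATA factors (AGATAA), the box named for TATAAA and the box named for CCAAT. The window lies at chr6:15717686-15717985 on the plus strand.
Abcg5: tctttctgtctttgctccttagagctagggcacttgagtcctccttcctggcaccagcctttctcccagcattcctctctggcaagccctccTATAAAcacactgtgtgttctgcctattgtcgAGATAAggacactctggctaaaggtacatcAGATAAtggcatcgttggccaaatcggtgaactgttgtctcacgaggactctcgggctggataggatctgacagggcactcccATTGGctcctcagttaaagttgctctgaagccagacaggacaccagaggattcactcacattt
Matches were AGATAA at 2 places, TATAAA at 1 and CCAAT at 1. Of 33365 promoters in the table, 11.58% hold AGATAA, 14.21% hold TATAAA and 37.5% hold CCAAT on either strand. Among the 35 ABC genes with a promoter there, 3 hold AGATAA, namely Abca4, Abcg5 and Abcg8, and 5 hold TATAAA.

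**Figure D3:**
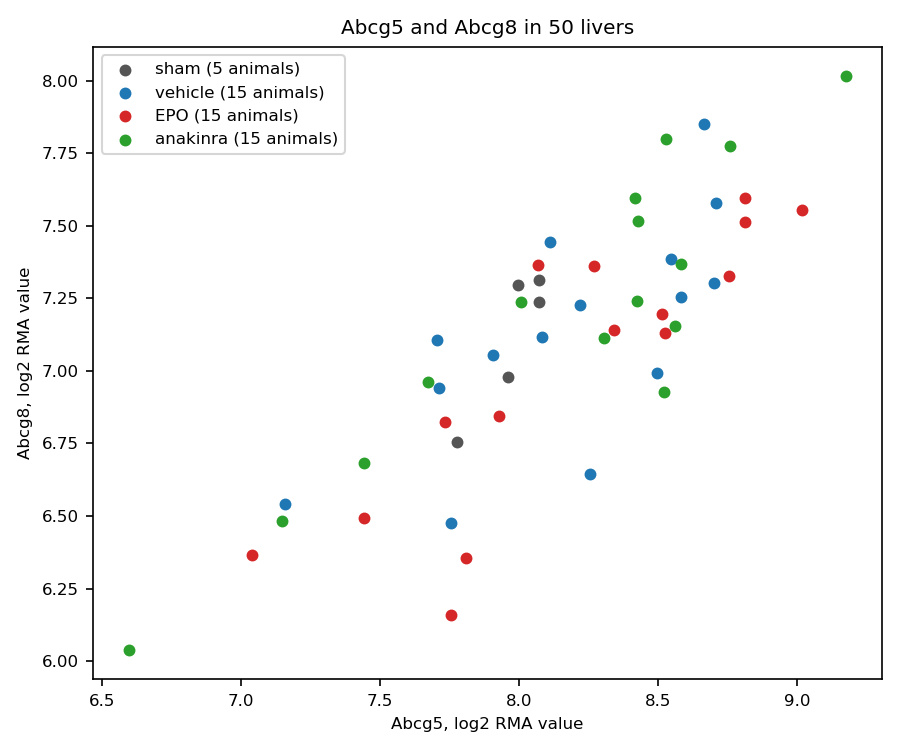
Abcg5 against Abcg8 in the 50 livers, in log2 RMA values, coloured by treatment. The points run from low in both genes to high in both, and the 4 treatments are mixed along that line.

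All 10 pairs of members with less than 200 kb between the genes were compared in the same way. The rule was set after values of Abcg5 and Abcg8 had been seen, and p-values were adjusted over the 10 pairs. Abcg5 and Abcg8 had an adjusted permutation p of 0.0001 for both measures. Abcb1a and Abcb4 gave r = 0.484, rho = 0.348 and adjusted permutation p of 0.0014 and 0.0329. Their r was 0.374 without the 2 farthest livers. Abcb1a and Abcb1b gave r = 0.292, rho = 0.276 and adjusted permutation p of 0.0663 and 0.0755, and r was 0.207 without the 2 farthest. Abcc5 and Abcf3 ran in opposite directions, with r = -0.528 and rho = -0.382 (adjusted permutation p = 0.0005 and 0.0237), and r was -0.443 without the 2 farthest livers but -0.296 without the narrow arrays. Abcg3 and Abcg3l3, which are related in sequence, gave r = 0.373 and rho = 0.432 (adjusted permutation p = 0.0156 and 0.0104), and r was 0.486 without the 2 farthest. Abcb8 and Abcf2 gave r = 0.408 and rho = 0.302 (adjusted permutation p = 0.00777 and 0.0671), and r was 0.242 without the 2 farthest. The remaining 4 pairs had r between -0.118 and 0.275, with adjusted permutation p of 0.0715 or more. Pairs of distant genes were not compared, so these p-values cannot tell whether neighbours varied together more than other genes did.

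**Figure D4:**
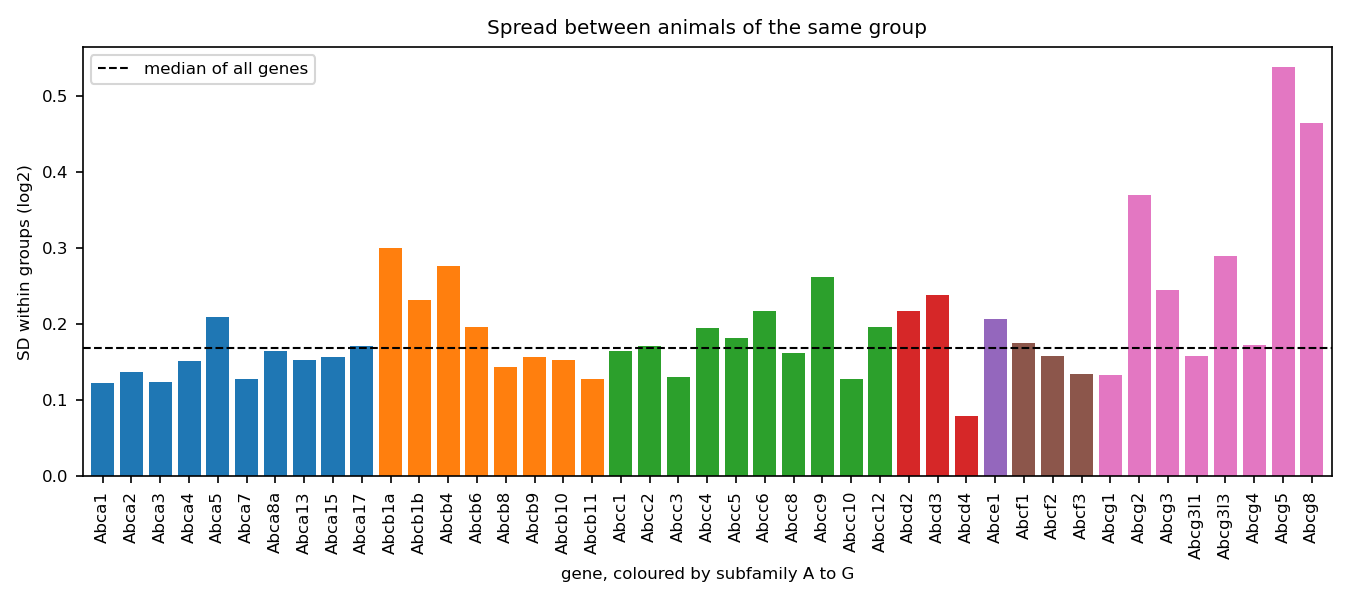
SD between animals of the same group, in log2 units, for each of the 43 ABC genes, with the median of all genes as a dashed line. Abcg5, Abcg8 and Abcg2 have the tallest bars (0.538, 0.466 and 0.371) and Abcd4 the shortest (0.0796).

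Among the sinusoidal exporters, 6 of 6 were measured, and Abca1, described next, was the one that passed in a main comparison. The multidrug resistance proteins Abcc3 and Abcc4, which return glucuronides and bile salts to blood and are known to rise in cholestasis, differed from sham in vehicle livers by 0.09 at every time for Abcc3 and by 0.20, 0.21 and 0.08 for Abcc4. Abcc6, which is needed for ATP release into blood, differed by 0.25, 0.22 and 0.25. None of these passed, nor did Abcc1 or Abcc5, exporters of glutathione conjugates and of cyclic nucleotides, whose differences in the 9 comparisons lay between -0.18 and 0.16.

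Abcc3 had its highest mean of the 10 groups with EPO at 7 days, as did Abcc5. These livers read 7.58, 7.47, 7.97, 7.63 and 7.52, vehicle livers at 7 days read 7.20, 7.43, 7.64, 7.41 and 7.29, and sham livers read 7.37, 7.19, 7.12, 7.38 and 7.45. The EPO values lay above all sham values but overlapped the vehicle ones. Abcc3 rose over sham by 0.33 (SE 0.0858, adjusted p = 0.0225, n = 5 each) where 2.86% of genes passed, and its difference from vehicle was 0.24 (adjusted p = 0.619). The call against sham was lost on omission of any of sham 2, sham 3 and EPO 3 (adjusted p at most 0.13). It was also lost when the narrow arrays were omitted and when only the groups compared were fitted (at most 0.0998).

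Abca1, which hands cellular cholesterol and phospholipid to apolipoprotein A-I to form HDL, rose in vehicle livers at 24 h. Sham livers read 10.23, 10.06, 10.29, 10.27 and 10.05, and vehicle livers at 24 h read 10.67, 10.43, 10.66, 10.61 and 10.49. All 5 vehicle values lay above all 5 sham values. The difference was 0.39 (SE 0.0812, 95% interval 0.23 to 0.56, adjusted p = 0.0078), or 1.31-fold. At 72 h and 7 days the difference from sham was 0.21 at both times and did not pass (adjusted p = 0.396 and 0.757).

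The higher Abca1 was also seen in the injured rats given a drug. Against sham it rose at 24 h by 0.35 with EPO (adjusted p = 0.0283) and by 0.41 with anakinra (adjusted p = 0.0193), where 0.434% and 0.193% of genes passed. At 72 h it rose by 0.39 with EPO (adjusted p = 0.00165, with 3.46% of genes passing), and the 0.29 with anakinra did not pass (adjusted p = 0.178). At 7 days the differences were 0.25 with EPO and 0.29 with anakinra (adjusted p = 0.0722 and 0.0516). These rest on the same 5 sham arrays. Against vehicle at the same time, Abca1 differed with EPO by -0.04, 0.18 and 0.04 and with anakinra by 0.02, 0.08 and 0.07, none past the test.

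The 24 h rise of Abca1 kept its size but not its call in every fit. It was 0.35 (adjusted p = 0.0926) without the narrow arrays and 0.39 (adjusted p = 0.0796) when only sham and vehicle at 24 h were fitted. No marker of another cell type passed in this comparison, where 0.827% of all genes did. The lists held 11 erythroid, 11 macrophage, 9 neutrophil, 9 lymphocyte, 7 endothelial, 7 cholangiocyte and 8 stellate cell genes. The macrophage genes had a median difference of -0.28. The part of cell types in the rise of Abca1 was not tested. The call of Abca1 with EPO at 24 h was lost on omission of any of sham 2, sham 5, EPO 1, EPO 3 and EPO 5 (adjusted p at most 0.133). That with anakinra was lost on omission of any of sham 2, sham 5, anakinra 4 and anakinra 5 (at most 0.127).

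The promoter window of Abca1 lies at chr5:72596424-72596723 on the minus strand (RefSeq, GRCr8) and is shown as that of the gene that rose after injury. Capitals mark GGGCGG (a GC box), CACGTG (an E-box, the motif of basic helix-loop-helix factors) and TATAAA.
Abca1: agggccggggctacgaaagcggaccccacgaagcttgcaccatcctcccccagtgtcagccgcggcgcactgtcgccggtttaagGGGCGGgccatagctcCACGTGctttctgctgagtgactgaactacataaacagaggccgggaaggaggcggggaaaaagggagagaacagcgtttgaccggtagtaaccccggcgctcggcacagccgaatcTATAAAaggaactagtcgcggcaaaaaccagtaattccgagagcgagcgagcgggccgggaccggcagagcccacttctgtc
CACGTG lay in 4 of the 35 ABC promoters (Abca1, Abca15, Abcb1b and Abcb6), or 11.4%, against 6.43% of all 33365 promoters, both strands searched. GGGCGG lay in 23 of 35, or 65.7%, against 33.14%. The core motif of nuclear receptors, AGGTCA, lay in 6 ABC promoters (17.1%, against 16.2% of all). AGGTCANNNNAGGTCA, AGGTCANAGGTCA and AGGTCANTGACCT, its paired forms, which contain it, matched in 0 of 35, and in 0.01%, 0.05% and 0.03% of all promoters. Only these exact letters were searched, so sites that vary from them were not counted, in the Abca1 window or elsewhere.

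Abcg1, which moves cholesterol to HDL and within cells and is abundant in macrophages, rose with EPO at 72 h. Vehicle livers at 72 h read 7.93, 7.67, 7.80, 8.08 and 8.26, and EPO livers read 8.29, 8.54, 8.12, 8.41 and 8.31. EPO values were above all vehicle values in 4 of 5 animals. The difference was 0.38 (SE 0.0872, 95% interval 0.21 to 0.56, adjusted p = 0.00548), or 1.31-fold. Against sham, which read 7.68 to 7.99, Abcg1 rose with EPO by 0.46 at 72 h (adjusted p = 0.000557) and by 0.32 at 7 days (adjusted p = 0.0339), and the 0.15 at 24 h did not pass. In vehicle livers it differed from sham by 0.13, 0.07 and 0.11, and with anakinra from vehicle by -0.09, 0.09 and -0.03.

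With vehicle array 2 omitted, Abcg1 differed from vehicle by 0.31 (adjusted p = 0.0553), and when only these 2 groups were fitted the adjusted p was 0.303. The call over sham at 7 days was lost on omission of any of sham 1, sham 2, sham 3, EPO 1, EPO 4 and EPO 5 (adjusted p at most 0.108) and in the fit of only those groups (0.0598).

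Genes of blood and immune cells rose in the same EPO livers. Against vehicle at 72 h, where 2.72% of all genes passed, 10 of 11 erythroid markers rose past the test. Their array means were 9.19 to 10.90, against 7.11 to 8.57. Macrophage markers passed upward in 8 of 11 cases, with array means of 9.42 to 9.65 against 8.50 to 9.35. Neutrophil markers did in 4 of 9 (6.14 to 7.07 against 5.72 to 6.08) and lymphocyte markers in 3 of 9 (6.74 to 7.11 against 6.41 to 6.89). Endothelial markers did in 3 of 7 (9.40 to 9.74 against 9.002 to 9.42) and stellate cell markers in 1 of 8 (8.40 to 8.60 against 8.32 to 8.46). Cholangiocyte and hepatocyte markers passed in 0 of 7 and 0 of 10 cases. Markers not called also differed, upward in Hbb (0.78), Pecam1 (0.31) and Cdh5 (0.34) and downward in Mpo (-0.27) and Cd3e (-0.20). With EPO at 7 days 9 of 11 erythroid markers rose past the test over vehicle (0.365% of all genes) and 10 of 11 over sham (2.86%). The part of these cells in the differences of Abcg1 and of the other ABC genes under EPO was not tested, and in tissue punches more cells of a type and more RNA per cell cannot be told apart.

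Abca8a, a lipid transporter of the Abca6-like group, rose over sham without passing against vehicle. Sham livers read 9.92, 9.93, 10.19, 10.15 and 10.12, EPO livers at 72 h read 10.59, 10.68, 10.57, 10.29 and 10.98, and anakinra livers at 72 h read 10.47, 10.75, 10.55, 10.54 and 10.51. Both treated groups lay wholly above sham. Abca8a rose over sham by 0.56 with EPO (adjusted p = 0.000366) and by 0.50 with anakinra (adjusted p = 0.0249, with 0.11% of genes passing) at 72 h, and by 0.41 with EPO at 7 days (adjusted p = 0.0213). Vehicle livers at 72 h read 10.10 to 10.64 and differed from sham by 0.34 (adjusted p = 0.396), and the 7-day vehicle difference was 0.32 (adjusted p = 0.739). The drugs differed from vehicle by -0.07 to 0.22, none past the test.

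Of these calls, that of EPO at 72 h was kept whichever array was left out. The anakinra call was lost on omission of any of sham 1, 2 and 5 and anakinra 1, 2, 3 and 4 (adjusted p at most 0.1). The 7-day EPO call was lost on omission of any of sham 1, sham 2, EPO 3 and EPO 5 (at most 0.0711) or of the narrow arrays (0.158). Of the 11 measured sterol and lipid exporters, the other 9 beside Abca1 and Abcg1 passed in no main comparison, among them Abca2, Abca3, Abca5, Abca7 and Abcg4.

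**Figure D5:**
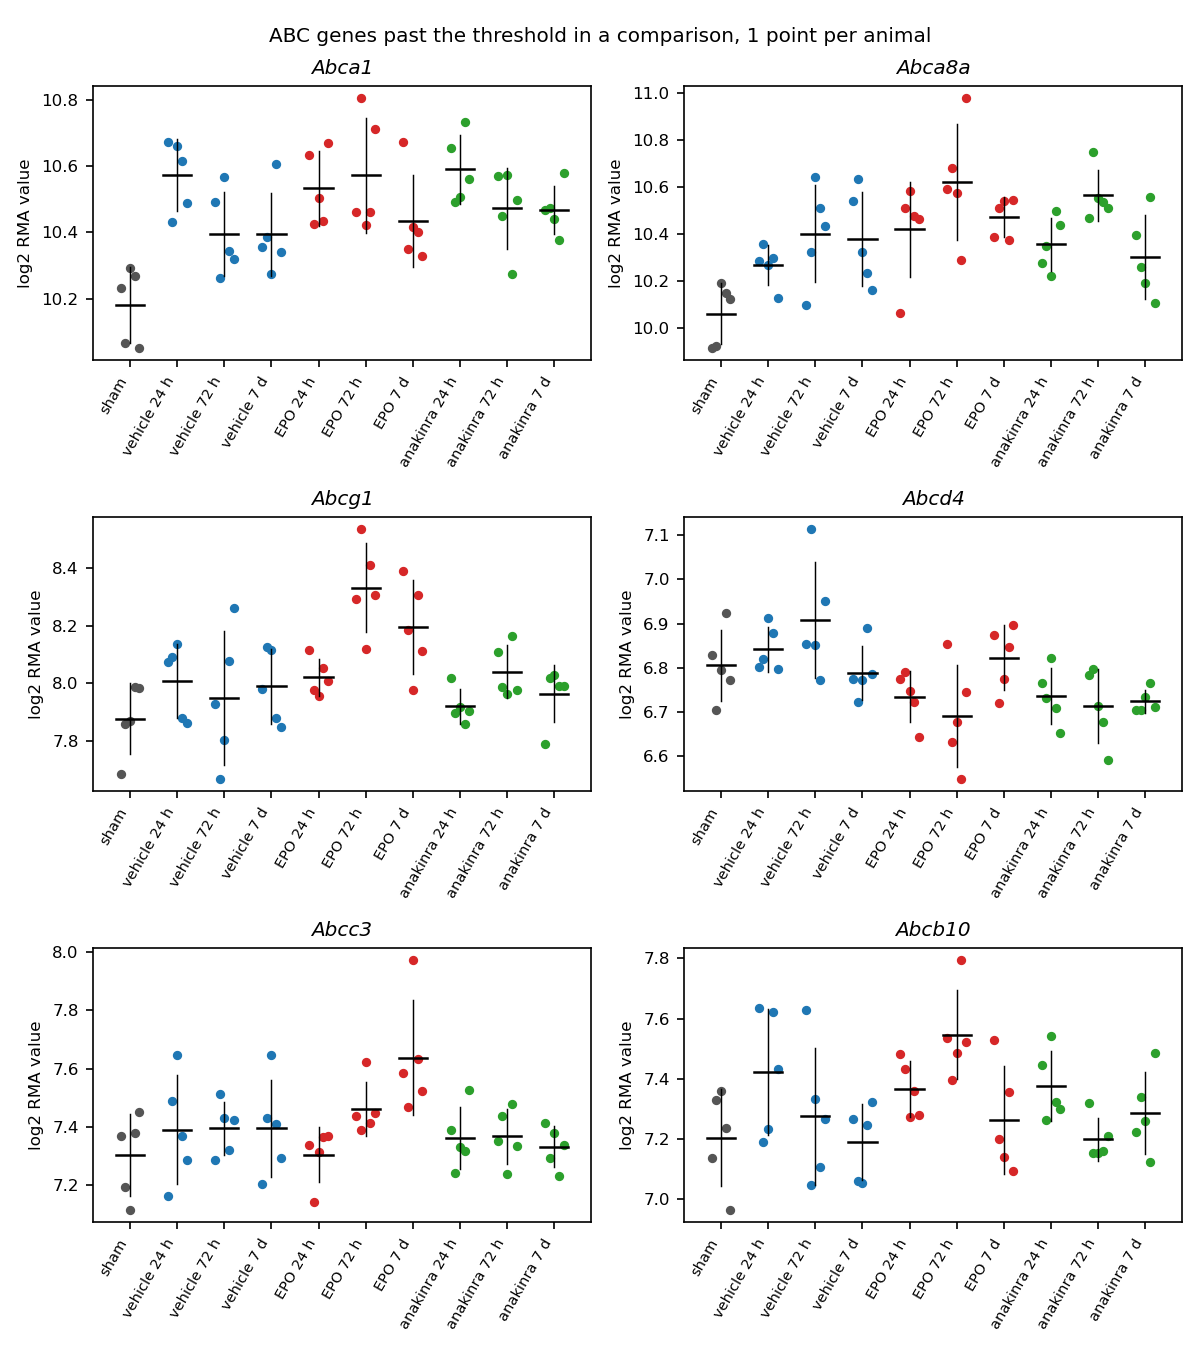
Log2 RMA values of Abca1, Abca8a, Abcg1, Abcd4, Abcc3 and Abcb10 in each animal (points) by group, with the group mean (horizontal line) and SD (vertical line, n = 5). Abca1, Abca8a, Abcg1 and Abcc3 have their lowest means in sham, Abcg1 and Abcb10 their highest with EPO at 72 h, and Abcd4 its lowest there.

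Of the mitochondrial ABC transporters, which serve heme and iron handling, 3 of 4 listed genes were measured and none passed against vehicle or in vehicle against sham. Abcb10, which is needed for heme synthesis in developing red cells, read 7.53, 7.40, 7.49, 7.79 and 7.52 with EPO at 72 h. Vehicle livers read 7.63, 7.05, 7.33, 7.11 and 7.26, anakinra livers 7.32, 7.15, 7.15, 7.16 and 7.21, and sham livers 7.13, 7.33, 7.36, 7.24 and 6.96. EPO livers lay above all anakinra and all sham livers and overlapped vehicle. Abcb10 rose by 0.34 over sham (adjusted p = 0.0359) and by 0.35 over anakinra (adjusted p = 0.0475), and the 0.27 over vehicle did not pass (adjusted p = 0.124).

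Both Abcb10 calls were close to the threshold. That against anakinra was lost in 8 of 10 fits that left out an array (all but those without EPO 2 or anakinra 1, adjusted p at most 0.209) and in 3 of 8 other alternatives (at most 0.129). That against sham was lost on omission of any of sham 1, sham 4, sham 5, EPO 4 and EPO 5 (at most 0.136), after a further quantile normalization and in the fit of only those groups (at most 0.0883). At 72 h erythroid markers rose past the test with EPO in 11 of 11 cases against anakinra, where 1.94% of all genes passed. Against sham 10 of 11 did, where 3.46% of all genes passed. Abcb6, a porphyrin transporter, and Abcb8, of the mitochondrial inner membrane, differed by -0.14 to 0.19 in the 9 comparisons.

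The D subfamily carries fatty acyl-CoA into peroxisomes (Abcd2, Abcd3) and cobalamin out of lysosomes (Abcd4). Abcd4 read 6.86, 7.11, 6.85, 6.77 and 6.95 in vehicle at 72 h and 6.85, 6.63, 6.68, 6.55 and 6.75 with EPO. EPO values were below all vehicle values in 4 of 5 animals. Abcd4 fell by 0.22 (SE 0.06, 95% interval -0.34 to -0.10, adjusted p = 0.0328), a difference of 1.16-fold. It was the least variable member, with an SD within groups of 0.0796, below which lie 0.6% of genes. With anakinra at 72 h Abcd4 read 6.59 to 6.80, a difference of -0.20 that did not pass (adjusted p = 0.449). The vehicle group at 72 h, at 6.909, had the highest mean of the 10 groups, and sham had 6.806.

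The call of Abcd4 was lost on omission of any of vehicle 2, vehicle 5, EPO 2, EPO 3 and EPO 4, with adjusted p at most 0.224. The difference was -0.13 (adjusted p = 0.425) without the narrow arrays, which include vehicle arrays 2 and 5 at 72 h, -0.17 with array weights (0.158) and with a further quantile normalization (0.0872), and not called when only these 2 groups were fitted (0.45).

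Abcd2 read 5.72, 5.75, 5.64, 5.92 and 5.71 with EPO at 72 h, against 5.40, 5.33, 5.61, 5.36 and 5.29 in vehicle and 5.18, 5.35, 5.30, 5.30 and 5.29 in sham. All 5 EPO values lay above both other groups. The rise over sham was 0.47 (adjusted p = 0.0359), lost on omission of any 1 sham array or of EPO 2, 4 or 5 (at most 0.0957) and with array weights (0.0558), and the 0.35 over vehicle did not pass (adjusted p = 0.138). Abcd3 (PMP70), a major protein of liver peroxisomes, differed by -0.24 to 0.26 in the 9 comparisons, none past the test.

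Abce1, which recycles ribosomes, and Abcf1, Abcf2 and Abcf3, which act in translation and its control, passed in no main comparison. Under anakinra at 7 days Abcf1, Abca17 and Abce1 had the lowest p among the members. Abcf1 read 8.40, 8.36, 8.21, 8.21 and 8.55 there, above all vehicle livers at 7.86 to 8.17, and its difference of 0.32 did not pass (adjusted p = 0.453). Abce1 differed by 0.29 (adjusted p = 0.591) and Abca17 by -0.25 (adjusted p = 0.583).

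In comparisons with no passing member, the 3 lowest p-values belonged to members that differed by at most 0.36. They were Abca8a, Abca1 and Abcb1b in vehicle at 72 h, and Abca8a (0.32), Abca1 (0.21) and Abcg3l1 (0.21) at 7 days. With EPO at 24 h they were Abcg3l1 (0.24), Abca13 (-0.21) and Abcb1b (-0.29), all with adjusted p of 0.442 or more. With EPO at 7 days they were Abcc3 (0.24), Abcg1 (0.21) and Abcf1 (0.19). With anakinra they were Abcg3l1 (0.22), Abca13 (-0.18) and Abcd4 (-0.11) at 24 h, and Abcd4 (-0.20), Abcc10 (-0.19) and Abcg3 (0.31) at 72 h.

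Ranges over the 9 main comparisons cover the members not described one by one, and of the genes in these ranges Abca1 alone passed, in vehicle at 24 h. Subfamily A spanned -0.25 (Abca5 in vehicle at 72 h) to 0.39 (Abca1), and subfamily C -0.29 (Abcc12 with EPO at 72 h) to 0.27 (Abcc9 in vehicle at 24 h). In subfamily B, Abcb9, a peptide transporter of lysosomes, lay between -0.18 and 0.14. In subfamily G, the rodent genes Abcg3, Abcg3l1 and Abcg3l3 lay between -0.34 and 0.34, both ends set by Abcg3l3, whose SD within groups was 0.29, and Abcg4 between -0.17 and 0.12. The sulfonylurea receptors Abcc8 and Abcc9, which are subunits of potassium channels rather than exporters, lay between -0.20 and 0.27. For 3 members with several probes the brightest was used, and the probes of a gene did not always run together, since residuals of the probes of Abcc4 correlated at -0.005 to 0.531, of Abcf2 at 0.513 and of Abcc9 at -0.108, across 50 arrays. For Abcc4 the choice of probe changed the values. With anakinra at 7 days against vehicle the other 2 probes read 0.49 and 0.32 (adjusted p = 0.337 and 0.425 over all probes), against 0.06 for the one used. At 72 h they read 0.0031 and 0.13 with anakinra and 0.03 and 0.02 with EPO, where the one used read -0.25 and -0.21.

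EPO and anakinra were also set against each other directly. Abcb10 at 72 h was the 1 member that passed, where 1.94% of genes did, and 0 members passed at 24 h (0.0207% of genes) or 7 days (0.441%), with 0 and 2 unadjusted p under 0.05 in limma, against 1.69% and 6.58% of genes. Abcc3 at 7 days was higher with EPO by 0.31 and did not pass (adjusted p = 0.134), and Abcg1 at 72 h was higher by 0.29 (adjusted p = 0.0685). With anakinra at 7 days against sham 0 members passed, where 1.83% of genes did, and 7 had an unadjusted p under 0.05 in limma, against 14.1% of genes, led by Abca1 and Abcf1 (0.36, adjusted p = 0.0743). This count of 0 changed with the settings: 1 to 4 members passed in 7 of 8 alternatives, mostly Abca1 and Abcf1, and Abca1 passed without sham array 4.

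Genes that control or accompany ABC transporters in liver were taken from a list. Of 33 listed regulators and partners, nuclear receptors among them, 29 were measured. Only Srebf2, a transcription factor of cholesterol synthesis genes, passed in any of the 9 comparisons, with a rise of 0.60 in vehicle at 24 h over sham (SE 0.119, adjusted p = 0.00655, all 5 animals above sham), where 0.827% of all genes passed. Abca1 rose in the same comparison, where Rxra (0.30, adjusted p = 0.081) and Mylip (0.29, adjusted p = 0.12) had the next lowest p of the list without passing. A link between these genes and Abca1 was not tested, and Srebf2 was not checked without the narrow arrays. Of the uptake carriers that face the exporters across the hepatocyte, 8 of 13 were measured and none passed, the widest difference being -0.77 for Slco1a4 in vehicle at 24 h (adjusted p = 0.0858). The ABC proteins under other symbols, Tap1, Tap2 and Cftr, passed in none.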

How the data were processed

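The data are 50 rat liver arrays (Affymetrix Rat Gene 1.0 ST). The authors deposited log2 values per probe, made with RMA in the oligo package per the submitters' processing notes, with versions not given in the sources used here. RMA fits background, quantile normalization and probe summary over arrays, which compresses differences of dim probes. The table held no detection call. Of 29214 probes, 15310 carried 1 gene symbol, 323 several and 13581 none, through GEO's platform annotation. Probes with 1 symbol were used, the one with the highest mean for each gene, which left 14506 genes, and the symbols of all 43 ABC genes were current in RefSeq. A probe shared by Abcg3 and 2 related genes was left out, and family members without a probe of their own symbol were not analysed here.

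Groups were compared with limma 3.58.1 in R 4.3.3 (lmFit and eBayes, 1 mean per group, 40 residual degrees of freedom) and Benjamini-Hochberg adjustment over all genes. The procedure was tested on simulated data. Genes varied independently there and no array was narrow, so that test does not bear on the effect of the narrow arrays. Animals are the replicates, and the number of arrays limits the precision. The 9 main comparisons set vehicle against sham and each drug against vehicle at the same time. A further 9 set each drug against sham and the drugs against each other. Alternatives were array weights, a trended robust fit, a replicate block, the mean of a gene's probes, genes above the median intensity, a further quantile normalization, omission of the narrow arrays, a fit of only the groups compared, and omission of each array in turn. Values of every member that passed, and of the canalicular, sinusoidal, main sterol and mitochondrial exporters whatever they showed, are given by name. Other members are given by counts and ranges, with the 3 lowest p-values where none passed. The members, lists and tests were chosen with earlier results of these data known. Promoter windows came from RefSeq (GRCr8) for 35 of the 43 members.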

Additional observations from a re-analysis of the deposited data

Results flagged for a closer look

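In 210 groups of 5 animals (21 ABC genes in 10 groups), 15 held an animal whose gap to its nearest neighbour exceeded Dixon's 95% critical value of 0.71 of the group's range. Chance flags about 5% of groups. Each is given by its log2 value and the nearest other value.

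EPO array 2 at 24 h was low in 3 genes, Abcb1a (7.176, nearest 7.894), Abcc3 (7.143, nearest 7.312) and Abcg5 (7.04, nearest 8.513). In the same group array 1 was low in Abca8a (10.065, nearest 10.466). The other low values were those of Abcb11 in vehicle at 7 days, array 4 (12.045, nearest 12.292), Abcb1b with anakinra at 72 h, array 3 (6.715, nearest 6.9), Abcb6 in vehicle at 7 days, array 3 (8.261, nearest 8.927), Abcg1 with anakinra at 7 days, array 1 (7.787, nearest 7.991), and Abcg5 with anakinra at 72 h, array 1 (7.673, nearest 8.304). High values were those of Abca1 with EPO at 7 days, array 1 (10.674, nearest 10.417), Abcb1b in vehicle at 72 h, array 5 (7.605, nearest 7.074), Abcc2 in sham, array 3 (12.348, nearest 12.144), Abcc3 with EPO at 72 h, array 3 (7.623, nearest 7.446), Abcc4 in vehicle at 24 h, array 3 (9.151, nearest 8.804), and Abcd2 with anakinra at 24 h, array 5 (6.222, nearest 5.506). Of these arrays, vehicle array 3 at 24 h, vehicle array 5 at 72 h and vehicle array 3 at 7 days are among the 7 narrow ones.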

How the results depend on the processing

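Under the alternatives run, no named difference that passed reversed its sign. In vehicle at 24 h against sham, the 1 passing member was Abca1, and 0 passed without the narrow arrays or when only the groups compared were fitted (57 and 48 of all genes, against 120). With EPO at 72 h against vehicle, 2 members passed, but 1, Abcg1, with array weights, among genes above the median intensity (where Abcd4 is not tested), after a further quantile normalization or without the narrow arrays, and 0 when only those groups were fitted (53 of all genes, against 395, and 175 among genes above the median). The F test over 10 groups passed for 3 members, and for 5 with array weights (2145 of all genes, against 823). Leaving out 1 array gave 1 to 1 members in vehicle at 24 h, 0 to 3 with EPO at 72 h, 3 to 3 in the F test over 10 groups, and 0 to 0 in the other main comparisons and the F tests over time. The fit with the replicate number as a block kept 1 and 2 passing members in the first 2 comparisons, 0 in the other 7 main ones and 3 in the F test. No consistent pairing by replicate number was seen: same-numbered arrays correlated at -0.262 to 0.617, with 20 of 45 pairs over 0.1. The same alternatives for drug against sham and drug against drug were added after the data had been seen. For anakinra at 7 days against sham they moved the count from 0 to 4 with array weights, to 2 among genes above the median intensity, after quantile normalization or in a fit of only those groups, and to 1 with the replicate block (Abcf1), the mean of probes (Abcc4) or no narrow arrays. Array weights also moved the count from 1 to 3 for EPO at 24 h and from 1 to 2 for anakinra at 24 h and 72 h against sham, the latter also 2 in a fit of only those groups. For EPO at 7 days against sham 3 became 1 without the narrow arrays. For EPO against anakinra at 72 h 1 became 2 with array weights or no narrow arrays, and 0 among genes above the median intensity, after quantile normalization or in a fit of only those groups. Leaving out 1 array gave 3 to 5 members for EPO at 72 h and 0 to 5 at 7 days against sham, 0 to 0 for EPO against anakinra at 24 h and 7 days, and 0 to 1 in the other 5.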
